A study of Mus musculus with 18 samples.

Results

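Asprv1, Padi4, Sprr5, St8sia4 and Stum are 5 genes whose transcripts stood on the same side of the control after silencing of either of the kinases Erk3 and Mk5 in myotubes, Asprv1 and Padi4 below it and Sprr5, St8sia4 and Stum above it. They were picked by name, with earlier comparisons of the same libraries known, out of 55414 genes in the count table, and all 5 passed the filter of 10 or more counts summed over libraries, as 21772 genes did. C2C12, an established line of mouse myoblasts, was transfected at confluence with pooled siRNAs that were non-targeting (siNTC) or directed against Erk3 (siErk3, gene Mapk6) or Mk5 (siMk5, gene Mapkapk5), and differentiated into myotubes for 6 days. The myotubes then spent 16 h in serum-free medium with BSA alone or with BSA that carried palmitic acid (PA) at 0.5 mM. The 6 groups, siNTC_BSA, siErk3_BSA, siMk5_BSA, siNTC_Palmitic, siErk3_Palmitic and siMk5_Palmitic, have 3 libraries each, 18 in all. All groups share the transfection, the differentiation and the serum-free medium, and there is no untransfected group. One cell line was used, and the labels do not say whether libraries of a group are separate cultures, so p-values measure only the spread between these libraries, which may be technical.

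Erk3 is an atypical MAP kinase, and Mk5 is a protein kinase that binds it and is activated by it. The products of the 5 genes share no single pathway. Asprv1 encodes a retroviral-like aspartic protease of the epidermis that processes profilaggrin, and Sprr5 belongs to the small proline-rich proteins that are cross-linked into the cornified envelope of keratinocytes. Padi4 is a peptidylarginine deiminase, which turns arginine of histones and other proteins into citrulline and is best known from granulocytes. St8sia4 is a Golgi polysialyltransferase that adds polysialic acid to the neural cell adhesion molecule Ncam1, which differentiating muscle also carries. Stum is the mouse homolog of a fly gene needed for mechanical sensing in proprioceptive neurons.

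The genes lie on 4 chromosomes of the GRCm39 build. Asprv1 (ENSMUSG00000033508) occupies chr6:86605146-86606692 on the plus strand and has 1 exon interval of 1547 bases. The other 4 are on the minus strand: Padi4 (ENSMUSG00000025330) at chr4:140473176-140501547, Sprr5 (ENSMUSG00000102308) at chr3:92439812-92441818, St8sia4 (ENSMUSG00000040710) at chr1:95515407-95595296 and Stum (ENSMUSG00000053963) at chr1:180259952-180311069. Their exonic lengths in the count table are 4835, 677, 20091 and 7375 bases. St8sia4 and Stum share chromosome 1 but lie far apart on it. No exonic base of any of the 5 is shared with another counted gene. Of the stretches of 50 bases in their transcripts, 0% in Asprv1, Sprr5 and Stum, 0.335% in Padi4 and 0.371% in St8sia4 also occur in transcripts of other genes, so near-identical copies hold little of these genes.

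The 250 bases before the first counted base are shown for 3 of the genes, because these genes move in 3 different ways with silencing and PA, and because their starts differ in core promoter letters. Capitals mark the TATA box (TATAAA), the CCAAT box (CCAAT) and the GC box (GGGCGG), each searched on both strands, so that the reverse complement of a GC box appears as CCGCCC. The windows are chr3:92441819-92442068 (minus strand), chr6:86604896-86605145 (plus strand) and chr1:180311070-180311319 (minus strand) of GRCm39. The Sprr5 and Stum windows lie directly upstream of the gene, and the Asprv1 window lies almost wholly in an intron of a longer Asprv1 transcript that GENCODE M39 adds.
Sprr5: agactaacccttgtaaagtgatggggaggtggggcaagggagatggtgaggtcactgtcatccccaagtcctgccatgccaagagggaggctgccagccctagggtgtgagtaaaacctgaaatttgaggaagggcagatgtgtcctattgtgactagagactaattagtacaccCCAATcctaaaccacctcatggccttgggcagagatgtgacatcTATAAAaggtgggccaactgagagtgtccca
Asprv1: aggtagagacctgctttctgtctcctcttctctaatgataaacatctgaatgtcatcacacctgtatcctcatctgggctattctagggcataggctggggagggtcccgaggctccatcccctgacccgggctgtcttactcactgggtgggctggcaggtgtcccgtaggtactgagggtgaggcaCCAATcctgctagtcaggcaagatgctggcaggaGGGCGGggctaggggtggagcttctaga
Stum: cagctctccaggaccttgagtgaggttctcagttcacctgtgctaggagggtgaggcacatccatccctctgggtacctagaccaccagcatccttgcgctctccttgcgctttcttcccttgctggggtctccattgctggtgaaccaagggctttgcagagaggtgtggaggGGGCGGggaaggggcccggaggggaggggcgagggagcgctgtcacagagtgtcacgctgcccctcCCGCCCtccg

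Sprr5 has a TATAAA whose first base is 31 bases before the start and a CCAAT 75 bases before it. TATAAA occurs in the same window of 7.81% of 14994 protein-coding genes tested and CCAAT in 35.6%. Asprv1 has a CCAAT 62 bases and a GC box 28 bases before its start, and Stum has 2 GC boxes. Any GC box at all occurs in 50.1% of windows. The Sprr5 window has no CpG, the Asprv1 window 4 and the Stum window 9, against a median of 12 over all windows (quartiles 6 and 20). For the remaining 2 genes, Padi4 has an AP-1 match (TGANTCA, which 4.89% of windows hold) 21 bases before its start and 3 CpGs, and St8sia4 has a CCAAT on the reverse strand, a GC box, a TGACG (part of the cyclic AMP response element, in 23.5% of windows) and 20 CpGs. The E-box (CANNTG), bound by MyoD and other factors, occurs in all 5 windows and in 59.9% of all windows. No match to the searched forms of the interferon response core, MEF2, PPAR or FOXO sites, each held by 0.04% to 2.94% of windows, was in these 5, which says nothing about the factors that read them. None of the matches in capitals overlaps another. The matches are descriptions of letters, not of binding.

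Library totals ran from 13041979 to 28496727 assigned read pairs, and 1 count is worth 0.0351 to 0.0767 CPM (counts scaled to the library total) before TMM scaling, which all CPM values given further on include. The smallest library is siNTC_BSA replicate 1. The share of 18S ribosomal RNA ran from 1.5% to 12.9% and was highest in siMk5_BSA (8.39% to 12.9%), against 2.56% to 7.17% in siNTC_BSA. Erk3 transcripts (Mapk6) fell from 132 ± 3.18 to 57.4 ± 2.64 CPM with siErk3 in BSA and from 232 ± 14.7 to 119.9 ± 11.4 CPM in PA (SD, n = 3, edgeR FDR = 1.77e-14 and 1.21e-12). Mk5 transcripts (Mapkapk5) were at 2.46 ± 0.126 CPM in siNTC_BSA and 1.63 ± 0.422 in siMk5_BSA, and at 3.24 ± 0.702 in siNTC_Palmitic and 2.31 ± 0.131 in siMk5_Palmitic (SD, n = 3, edgeR FDR = 0.469 in both media). The Mk5 means were lower with siMk5 in both media without being called, and protein is not measured in these data. The authors report that Western blots showed silencing of both kinases, and less Erk3 protein after Mk5 silencing. All 12 myotube markers examined were expressed, at a summed 15350 to 19220 CPM in BSA and 14520 to 16620 CPM in PA. Fibroblast markers (5 of 5 tested) summed to 1405 to 1767 CPM in BSA and 441 to 778 CPM in PA.

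Levels of the 5 genes ran from low to moderate among tested genes. Per kilobase of exon, the mean over all libraries was 4.44 CPM for Sprr5, 1.70 for Asprv1, 1.17 for Stum, 0.569 for Padi4 and 0.0288 for St8sia4, which puts St8sia4 at percentile 8.73 of tested genes on that scale and the other 4 between percentiles 41.7 and 64.5. In CPM not divided by length, which reflects how many read pairs were counted, Stum had the most (8.59) and St8sia4 the fewest (0.578).

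**Figure D1:**
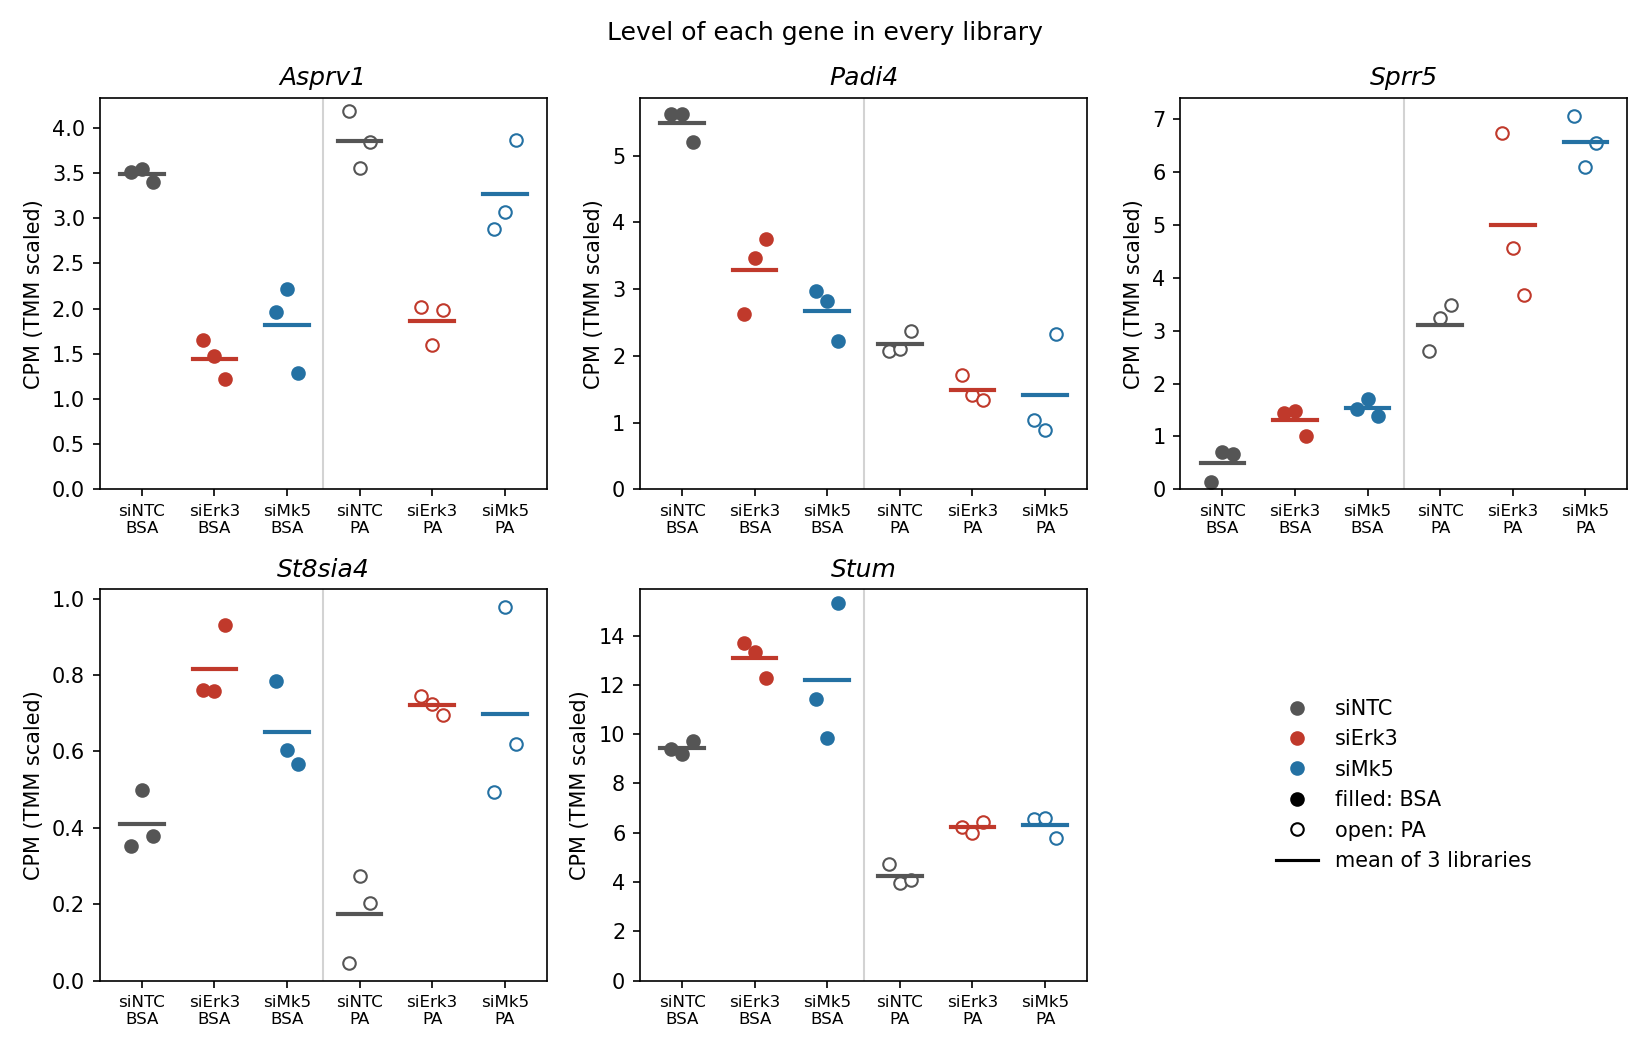
Level of each gene in every library, in TMM-scaled CPM (linear axis from 0), by group, with filled points for BSA, open points for PA and a line at the mean of 3 libraries. Silenced groups lie below siNTC for Asprv1 and Padi4 and above it for Sprr5, St8sia4 and Stum in both media, with overlap between siMk5_Palmitic and siNTC_Palmitic for Asprv1 and Padi4.

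For Asprv1, the protease, the siNTC_BSA libraries held 50, 85 and 72 counts, or 3.51, 3.54 and 3.41 CPM. After silencing in BSA the values were 1.65, 1.48 and 1.22 CPM with siErk3 and 1.96, 2.21 and 1.29 CPM with siMk5, all below the lowest siNTC library. In PA the siNTC libraries stood at 4.18, 3.56 and 3.84 CPM and the siErk3 libraries at 2.02, 1.59 and 1.99 CPM. The siMk5 libraries in PA were at 2.88, 3.08 and 3.87 CPM, so that 1 of them exceeded 2 of the siNTC libraries. The log2 fold changes against siNTC were -1.28 (SE 0.18) with siErk3 and -0.93 (SE 0.18) with siMk5 in BSA, and -1.06 (SE 0.17) with siErk3 in PA. In PA with siMk5 it was -0.25, with an interval from -0.57 to 0.08 that includes 0.

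Padi4, the deiminase, had its highest level in siNTC_BSA, with 80, 135 and 110 counts or 5.62, 5.63 and 5.20 CPM. With siErk3 in BSA it was at 2.62, 3.46 and 3.76 CPM, and with siMk5 at 2.97, 2.82 and 2.22 CPM. These groups do not overlap siNTC. In PA the siNTC libraries were at 2.07, 2.10 and 2.38 CPM and the siErk3 libraries at 1.71, 1.41 and 1.34 CPM. The siMk5 libraries in PA held 23, 19 and 45 counts, or 1.03, 0.885 and 2.32 CPM, and the last of these lay within the siNTC range. The log2 fold changes were -0.73 (SE 0.18) and -1.03 (SE 0.19) with siErk3 and siMk5 in BSA, and -0.55 (SE 0.24) and -0.65 (SE 0.25) in PA. Without siMk5_Palmitic replicate 3 the last value was -1.17.

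Sprr5, the cornified envelope gene, had its lowest level in siNTC_BSA, with 2, 17 and 14 counts or 0.141, 0.708 and 0.662 CPM. The library with 2 counts is the smallest of the 18, and the exact Poisson interval of its count runs from 0.242 to 7.23 counts (95%), or 0.0170 to 0.508 CPM. With siErk3 in BSA the values were 1.44, 1.48 and 1.00 CPM and with siMk5 1.53, 1.71 and 1.39 CPM, all above siNTC. Its levels in PA were several times those in BSA, at 2.61, 3.24 and 3.49 CPM in siNTC, 6.74, 4.56 and 3.67 CPM in siErk3 and 7.06, 6.10 and 6.55 CPM in siMk5. Silenced and siNTC libraries again did not overlap, although the lowest siErk3 library was close to the highest siNTC library. The log2 fold changes were 1.22 (SE 0.35) and 1.47 (SE 0.34) in BSA and 0.69 (SE 0.19) and 1.08 (SE 0.18) in PA, for siErk3 and siMk5. Leaving out the library with 2 counts gave 0.91 and 1.16 in BSA.

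St8sia4, the polysialyltransferase, was the rarest of the 5. In siNTC_BSA it had 5, 12 and 8 counts, or 0.351, 0.500 and 0.378 CPM, and in siNTC_Palmitic 1, 6 and 4 counts, or 0.0450, 0.274 and 0.202 CPM. The siErk3 libraries held 18, 18 and 26 counts in BSA and 17, 20 and 14 in PA, and the siMk5 libraries 18, 12 and 11 in BSA and 11, 21 and 12 in PA. In CPM every silenced library exceeded every siNTC library of its medium. Summed over 3 libraries, 51 counts with siErk3 and 44 with siMk5 stood against 11 with siNTC in PA, ratios of 4.20 (2.16 to 8.93) and 4.05 (2.06 to 8.70) after scaling, where the exact 95% intervals cover counting error only. In BSA the ratios were 1.96 (1.21 to 3.25) and 1.57 (0.930 to 2.69), and the latter interval includes 1. The fitted log2 fold changes were 2.03 (SE 0.43) and 1.98 (SE 0.44) in PA and 0.96 (SE 0.35) and 0.64 (SE 0.37) in BSA. In PA they moved with the lowest library, to 1.57 and 1.52 without siNTC_Palmitic replicate 1, whose count is 1, and to 2.55 and 2.5 without replicate 2, and a larger prior count of 5 gave 1.25 and 1.21.

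Stum, the most counted of the 5, had 134, 221 and 206 counts in siNTC_BSA, or 9.41, 9.21 and 9.74 CPM. With siErk3 in BSA it stood at 13.7, 13.3 and 12.3 CPM and with siMk5 at 11.4, 9.86 and 15.3 CPM, the lowest of which lay just above the highest siNTC library. In PA the siNTC libraries were at 4.72, 3.97 and 4.09 CPM, the siErk3 libraries at 6.22, 6.01 and 6.45 CPM and the siMk5 libraries at 6.56, 6.62 and 5.78 CPM. The shifts were small and similar, with log2 fold changes of 0.47 (SE 0.11) and 0.36 (SE 0.11) in BSA and 0.54 (SE 0.14) and 0.57 (SE 0.14) in PA for siErk3 and siMk5. Without siMk5_BSA replicate 3, the library at 15.3 CPM, the siMk5 value in BSA was 0.18.

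**Figure D2:**
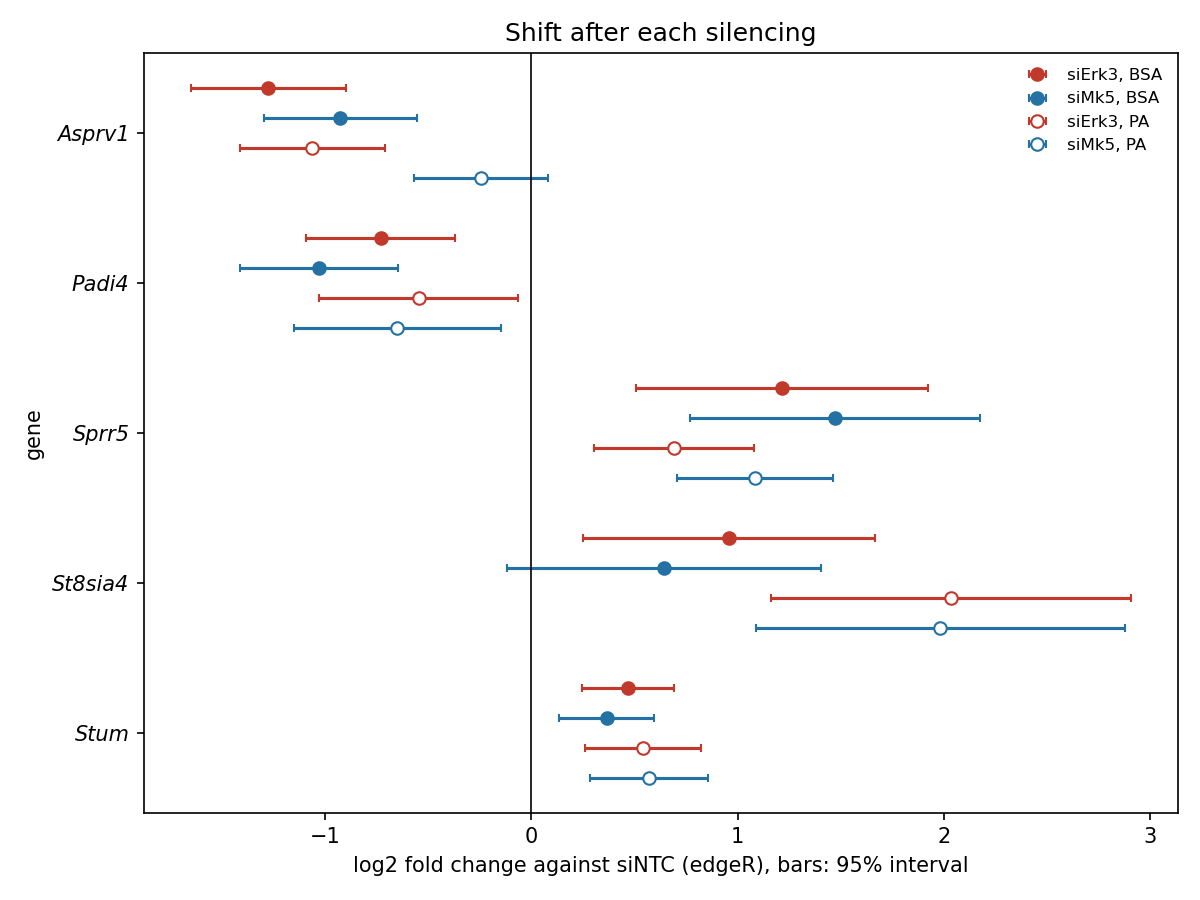
Log2 fold change of each gene against siNTC (horizontal axis, edgeR) for siErk3 in red and siMk5 in blue, filled in BSA and open in PA, with 95% intervals as bars. Both silencings lie on the same side of 0 for each gene and medium; the intervals of Asprv1 with siMk5 in PA (-0.57 to 0.08) and of St8sia4 with siMk5 in BSA (-0.12 to 1.40) include 0.

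These 4 comparisons are the ones from which the genes were chosen, so their shifts describe the choice and carry no p-value. By the criteria of an edgeR FDR below 0.05 and a fold change above 1.3, Asprv1, Padi4 and Stum met them with siErk3 in BSA (3 of 5, against 0.785% of all genes tested) and Asprv1 and Padi4 with siMk5 in BSA (2 of 5, against 0.0643%). In PA, Asprv1 and St8sia4 met them with siErk3 (2 of 5, against 0.556%) and Sprr5, St8sia4 and Stum with siMk5 (3 of 5, against 0.547%). Nothing is read from these shares, since the choice fixed them. Silenced and siNTC groups did not overlap for all 5 genes with siErk3 in BSA (17.4% of all genes), with siMk5 in BSA (12.3%) and with siErk3 in PA (12.1%), and for 3 of 5 with siMk5 in PA (12%). Sprr5, St8sia4 and Stum were clear of siNTC on the same side in all 4 comparisons, which 44 genes were (0.202%). The log2 fold changes of all 5 had 1 sign in all 4 comparisons, as those of 4617 genes did (21.2%).

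Stum met the criteria with siErk3 in BSA at 1.38-fold, near the fold threshold. With siErk3 in PA Stum was at 1.46-fold, above the fold threshold, but missed the FDR threshold. There it met the criteria in 3 of 14 alternatives (DESeq2, scaling without 18S RNA, and no filter on low counts). With DESeq2 in place of edgeR, Sprr5 met the criteria with both silencings in BSA and Stum with both in PA. In the edgeR fit these genes met them with both silencings in neither medium. Genes that met them alike in both silencings numbered 4 in BSA (0.0184% of genes tested), namely Padi4, Asprv1 and the myosin heavy chains Myh6 and Myh7, and 3 in PA (0.0138%), namely St8sia4, the connexin Gja5 and the immunoglobulin gene Igha. St8sia4 met the criteria with neither silencing in PA without siNTC_Palmitic replicate 1 or in a fit of only the groups compared, and missed them with siMk5 without siMk5_Palmitic replicate 2 (1.65). The 4 names that are not among the 5 genes are given because the counts are small, after their values were seen. Genes that met the criteria in both silencings with opposite directions numbered 1 in BSA and 33 in PA. The siErk3 and siMk5 comparisons of a medium share the siNTC libraries, so a high or low siNTC group moves both the same way.

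The direct comparison of siErk3 with siMk5 uses no siNTC library, but it is the difference of the comparisons from which the genes were chosen, and a choice of genes that move alike favors small values. It is therefore a description with no p-value. Asprv1 in PA was lower with siErk3 than with siMk5, at 1.86 ± 0.236 against 3.27 ± 0.526 CPM (SD, n = 3), a log2 fold change of -0.82 (SE 0.18, interval -1.18 to -0.45), with no overlap between the groups (14.7% of all genes). It was the 1 gene of 5 that met the criteria in PA, where 1.03% of all genes did. It no longer met them without siErk3_Palmitic replicate 2 (-0.71) or without siMk5_Palmitic replicate 3 (-0.69).

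In BSA the Asprv1 difference was -0.35 (interval -0.77 to 0.07), and the PA value minus the BSA value was -0.47 (interval -1.03 to 0.09). None of the 5 genes met the criteria in BSA, where 0.588% of all genes did, and their groups overlapped (15.3% of all genes did not). For the change of the difference between media, 0.0735% of all genes met the criteria and none of the 5 did.

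Padi4 differed by 0.30 in BSA (interval -0.10 to 0.70) and 0.10 in PA (-0.43 to 0.63) on the log2 scale, siErk3 against siMk5. Sprr5 differed by -0.26 (-0.81 to 0.30) and -0.39 (-0.74 to -0.05), and by -0.66 in PA without siErk3_Palmitic replicate 1, the highest library of its group, where it met the criteria. For St8sia4 the differences were 0.32 (-0.32 to 0.96) and 0.05 (-0.60 to 0.70), the widest intervals of the 5 genes. Stum had the narrowest, at 0.10 (-0.11 to 0.32) and -0.03 (-0.29 to 0.23).

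**Figure D3:**
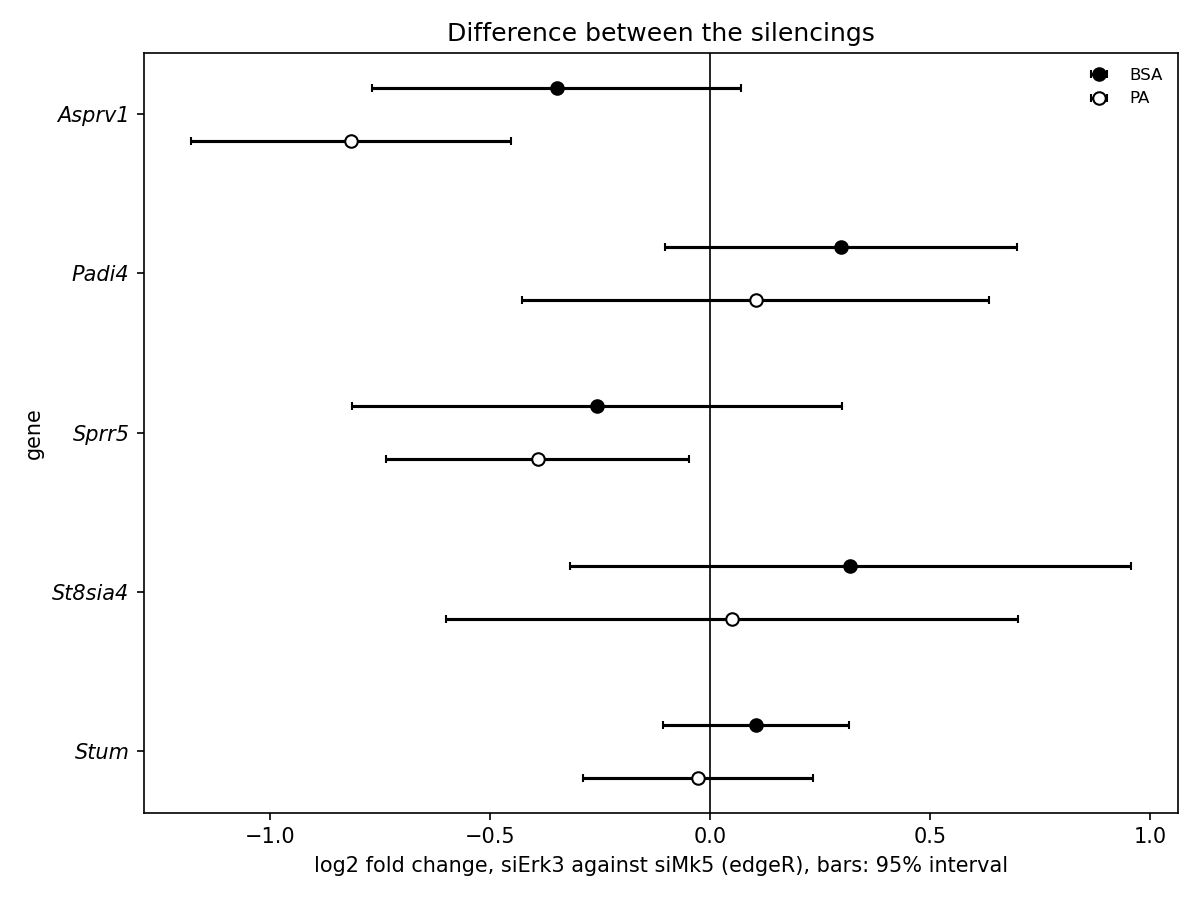
Log2 fold change of siErk3 against siMk5 (horizontal axis, edgeR) for each gene, filled in BSA and open in PA, with 95% intervals as bars. Asprv1 in PA stands at -0.82, and the BSA intervals of all 5 genes include 0.

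Palmitic acid moved the genes in different directions. The comparison of PA with BSA weights the 3 siRNAs equally and is not one of the 4 silencing comparisons. Averaged over the 3 siRNAs, Sprr5 rose by a log2 fold change of 2.17 (SE 0.14, 4.50-fold, edgeR FDR = 1.07e-14) and Asprv1 by 0.45 (SE 0.10, edgeR FDR = 0.000456). Padi4 fell by 1.14 (SE 0.12, edgeR FDR = 1.70e-09) and Stum by 1.05 (SE 0.07, edgeR FDR = 1.97e-14) on the log2 scale. St8sia4 was at -0.45 (SE 0.22, interval from -0.91 to just above 0, edgeR FDR = 0.0803) and was not called. Thus 4 of 5 were called, where 37.3% of all genes tested were (17.9% higher and 19.4% lower), so a change with PA was common among genes. Exact permutation of libraries within each siRNA gave two-sided p-values of 0.00025 for Sprr5 and Stum, the smallest possible, 0.0005 for Padi4, 0.001 for Asprv1 and 0.0708 for St8sia4.

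Within each siRNA, PA and BSA libraries of Sprr5 and Stum did not overlap (51.3%, 53.9% and 51.9% of all genes in siNTC, siErk3 and siMk5). The Sprr5 log2 fold changes of PA against BSA were 2.48 in siNTC, 1.95 in siErk3 and 2.09 in siMk5, and those of Stum -1.15, -1.07 and -0.94. Padi4 shifted by -1.33, -1.15 and -0.95, with an overlap in siMk5 through the library at 2.32 CPM. Asprv1 shifted by 0.15 in siNTC (interval -0.18 to 0.47), 0.36 in siErk3 and 0.83 in siMk5 (interval 0.46 to 1.20). St8sia4 was at -1.26 in siNTC (interval -2.26 to -0.25), -0.18 in siErk3 and 0.08 in siMk5. Differences between these values are differences of the comparisons that chose the genes and are given with no test. The averaged St8sia4 value passed when siNTC_Palmitic replicate 2 was left out (-0.64, edgeR FDR = 0.0298) or siMk5_Palmitic replicate 2 was (-0.57, edgeR FDR = 0.0305), with a range of 0.0298 to 0.24 over 24 alternatives.

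**Figure D4:**
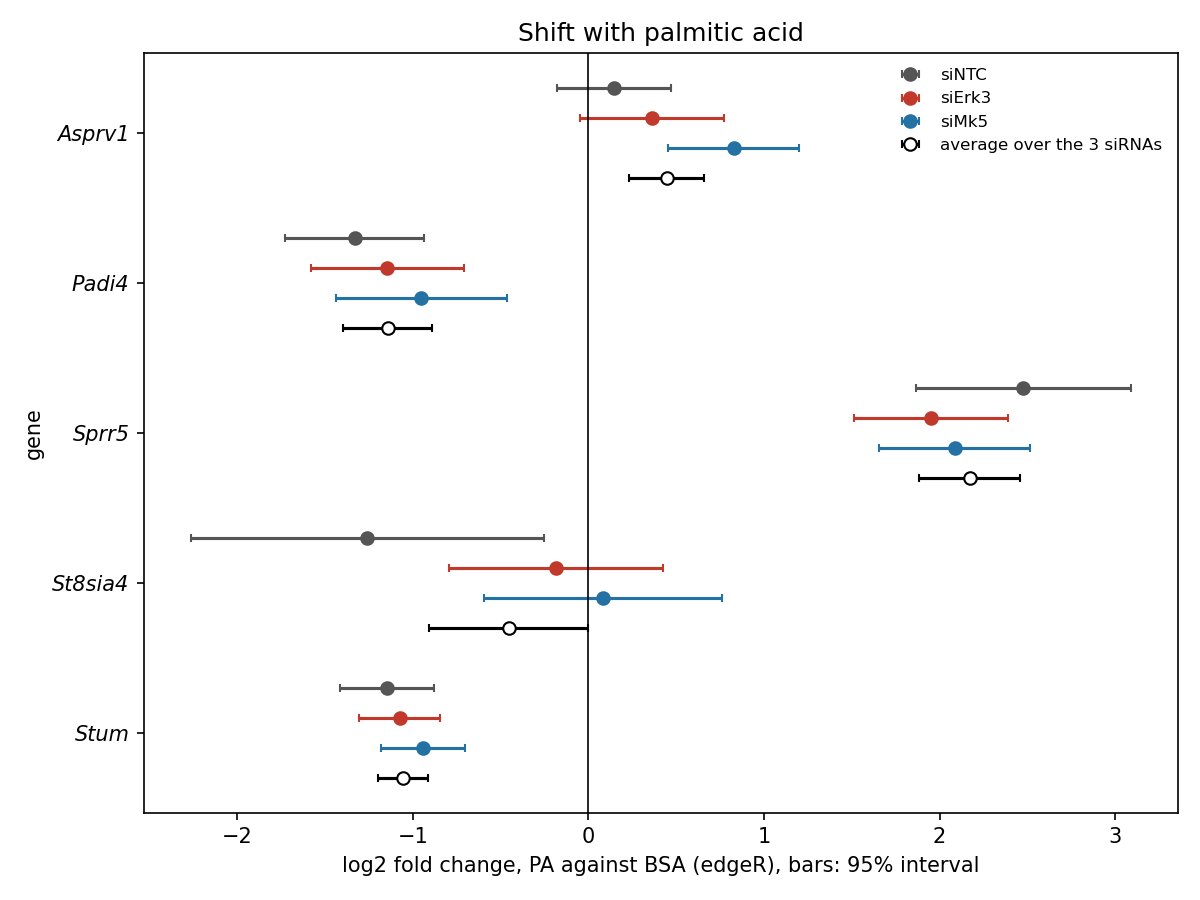
Log2 fold change of PA against BSA (horizontal axis, edgeR) for each gene within siNTC, siErk3 and siMk5 and averaged over the 3 siRNAs (open black points), with 95% intervals as bars. Sprr5 lies near 2 and Stum near -1 in each siRNA, while St8sia4 runs from -1.26 in siNTC to 0.08 in siMk5.

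The order of group means shows how the directions of silencing and of PA combined in each gene. Padi4 was highest in siNTC_BSA (5.48 CPM) and lowest in siMk5_Palmitic (1.41 CPM), with silencing and PA both downward. Sprr5 was lowest in siNTC_BSA (0.504 CPM) and highest in siMk5_Palmitic (6.57 CPM), with both upward. In Stum they were opposed, with siNTC_Palmitic lowest (4.26 CPM) and siErk3_BSA highest (13.1 CPM), and St8sia4 had the same ends, from 0.174 to 0.817 CPM. Asprv1 ran from siErk3_BSA (1.45 CPM) to siNTC_Palmitic (3.86 CPM). Neighbors in the order often overlapped: for Asprv1 siErk3_BSA, siMk5_BSA and siErk3_Palmitic did in turn, and for St8sia4 the 2 siMk5 groups and siErk3_Palmitic did.

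The spread between libraries was close to what counting alone gives for most groups. The coefficient of variation (CV) over 3 libraries had a median over groups of 13.8% for Asprv1, 13.98% for Padi4, 17.4% for Sprr5, 18.6% for St8sia4 and 6.52% for Stum. The CV that Poisson counting gives at the mean count had medians of 13.6%, 14.04%, 14.95%, 26.6% and 7.79%. Groups well above counting error were Padi4 in siMk5_Palmitic (55.9% against 18.6%), Sprr5 in siNTC_BSA (62.6% against 30.2%) and siErk3_Palmitic (31.7% against 9.21%), and Stum in siMk5_BSA (23.04% against 6.30%). For St8sia4, 2 of 6 groups varied more than counting error and the others less, and an SD below counting error understates the error of the level.

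**Figure D5:**
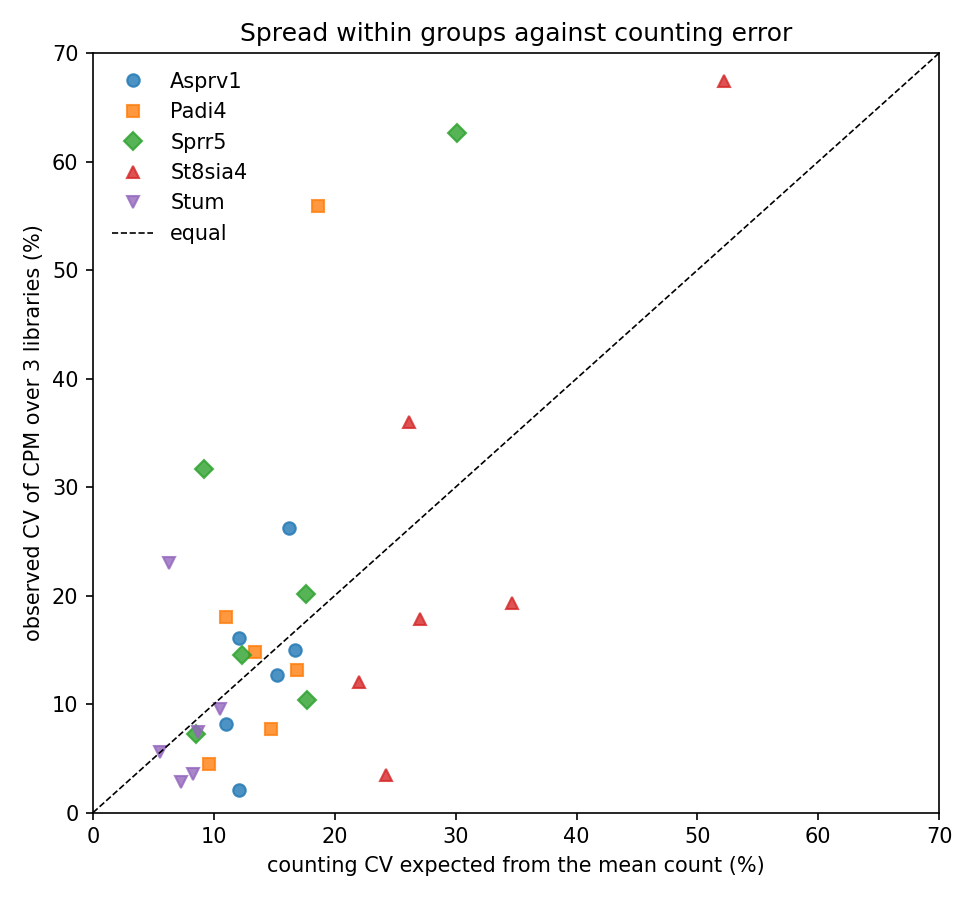
Observed CV of CPM over 3 libraries (vertical axis, %) against the CV that counting gives at the group's mean count (horizontal axis, %), 1 point per gene and group, with the dashed line at equality. Padi4 in siMk5_Palmitic (55.9%) and Sprr5 in siNTC_BSA (62.6%) stand well above the line, and St8sia4 in siNTC_Palmitic is farthest right at 52.2%.

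Genes of the same families and pathways were examined beside the 5. Lists of cornified envelope and epidermal genes, deiminases, aspartic proteases, the sialic acid pathway and mechanically gated channels, without the 5 genes, hold 76 tested genes. In the 304 tests of these over the 4 silencing comparisons, edgeR called 1, the channel Kcnk2, which rose with siErk3 in BSA from 4.99 to 7.09 CPM (log2 fold change 0.49, edgeR FDR = 0.0269). The share of all genes called was 0.785%, 0.0643%, 0.556% and 0.547% in these comparisons, so 1 call is near the background. An unadjusted p under 0.05 was found for 6 and 7 of 76 with siErk3 and siMk5 in BSA and for 11 and 6 of 76 in PA, against 10.6%, 6.9%, 8.3% and 6.8% of all genes. In siErk3 against siMk5 in PA, where 1.03% of all genes were called, 2 of the 76 were called, both lower with siErk3. They are the deiminase Padi2 (43.0 against 56.8 CPM, log2 fold change -0.40, edgeR FDR = 0.00461) and Sbsn, a secreted protein of the epidermis (0.907 against 1.79 CPM, -0.93, edgeR FDR = 0.0493).

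With PA, most relatives of Padi4 fell, as it did. Of the 4 other deiminases tested, 3 were called lower (19.4% of all genes were) and Padi6 was not called, with a list median of -0.89 against -0.02 over all genes. Padi3, which lies 11129 bases from Padi4, fell by 1.22 (edgeR FDR = 5.86e-17), Padi1 by 1.99 (edgeR FDR = 9.94e-10) and Padi2 by 0.55 (edgeR FDR = 6.30e-12) on the log2 scale. In the silencing comparisons Padi3 was between -0.15 and 0.19 and was not called.

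Epidermal genes had no shared direction with PA. Of 24 tested, 7 were called higher and 8 lower (median -0.08), where 17.9% of all genes were called higher and 19.4% lower. Sprr2k and Sprr3, proline-rich relatives of Sprr5, fell by 2.20 (edgeR FDR = 2.48e-12) and 1.26 (edgeR FDR = 2.06e-06) on the log2 scale, opposite to Sprr5. Another relative, Sprr2h, with 14 counts over all libraries, rose by 2.67 (edgeR FDR = 0.018), as Sprr5 did. Sprr1a was at -0.35 and was not called. Cdsn, an adhesion protein of the outer epidermis, rose by 3.58 (edgeR FDR = 1.25e-19) and the transcription factor Klf4 by 2.02 (edgeR FDR = 1.05e-31). Keratinocyte markers were sparse: of 8, 5 were tested, Krt1 was at 0 in all libraries and Krt5 was below 10 counts in all, while most of the summed 24.8 to 46.4 CPM came from Trp63 (18.9 to 32.9 CPM by group mean), a factor that muscle precursors also express. The sum was 42.5 to 46.4 CPM in siNTC_BSA, 42.7 to 44.1 in siErk3_BSA and 43.7 to 45.8 in siMk5_BSA. These ranges overlap, while Sprr5 stood above siNTC with both silencings in BSA. The marker sum was lower in PA, while Sprr5 rose. In PA it was 24.8 to 27.0 CPM in siNTC, 28.7 to 32.3 in siErk3 and 29.4 to 31.5 in siMk5, so it stood above siNTC in the silenced libraries, as Sprr5 did. Most of that difference was Trp63, at 18.9, 23.3 and 23.2 CPM in siNTC, siErk3 and siMk5. Krt10 was lower in the silenced groups, at 2.20, 1.86 and 1.98 CPM, and none of the 5 tested markers was called with either silencing in PA. The part of the marker sum in the Sprr5 result was not tested. The nearest tested neighbors of Sprr5, Sprr1a and Ivl, were not called in any of these comparisons.

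The same background of 17.9% higher and 19.4% lower stands beside the other lists. In the sialic acid pathway, 5 of 24 genes were called higher and 9 lower with PA (median -0.30). St8sia2, the other polysialyltransferase, averaged 192 counts per library and fell by 0.68 (edgeR FDR = 1.43e-11), and Ncam1, their main substrate, fell by 0.62 (edgeR FDR = 5.65e-19) on the log2 scale. Of 9 aspartic proteases, 3 were called higher and 1 lower (median 0.01). Among 15 mechanically gated channels and partners 3 were called higher and 4 lower (median 0.12), with Piezo1 up by 0.89 (edgeR FDR = 1.21e-19) and Piezo2 down, as Stum was, with a log2 fold change of -1.31 (edgeR FDR = 1.94e-21).

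Markers of other cells that use these genes were examined beside them. Of 8 neutrophil markers, tested because Padi4 is a granulocyte gene, 2 passed the count filter, S100a9, Csf3r and Ltf were at 0, and the sum was at most 0.258 CPM. Of 6 neural markers, tested because of Stum and St8sia4, 3 passed, Syt1 was at 0, and the sum ran from 95.1 to 112 CPM in BSA and 83.4 to 93.5 CPM in PA with overlapping ranges between siRNAs. Neural and fibroblast marker sums were thus lower in PA in every library, as Stum and Padi4 were in group means. Myotube marker sums were also lower in PA in siNTC (14820 to 15330 against 17480 to 18060 CPM) and in siErk3, with overlap in siMk5. With PA, 4 of 12 myotube markers were called lower and 0 higher, where 19.4% of all genes were called lower. The list medians were -0.28 for myotube, -0.27 for neural and -0.81 for fibroblast markers. The fibroblast sum was 1725 to 1767 CPM in siErk3_BSA, 1447 to 1670 in siNTC_BSA and 1405 to 1638 in siMk5_BSA. Most of it was Col1a1 (log2 fold change 0.18 with siErk3 in BSA). In that comparison Lum (0.24) and Thy1 (1.92, with 14 counts over all libraries) were also higher, while Dcn (-0.23) and Pdgfra (-0.14) were lower. The list median was 0.18, and none of the 5 markers was called. Of the 12 myotube markers, 9 were not called with siErk3 in BSA, and the list median was -0.0017. The other 3, Actn2 (log2 fold change 0.48, edgeR FDR = 1.74e-06), Myh3 (0.39) and Myh8 (0.57), were called higher, where 0.785% of all genes were called. None of the 3 was called with siMk5 in BSA, at 0.10, 0.12 and -0.08. With siErk3 in PA, where 0.556% of all genes were called, Actn2 (0.42) and Myh8 (0.60) were called higher. Myh3 was at 0.376 there and was not called. None of the 12 was called with siMk5 in PA. The part of these marker changes in the shifts of the 5 genes was not tested. In bulk RNA, fewer cells that express a gene and less RNA per cell cannot be told apart.

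No tested neighbor was called in both silencings of a medium. Mxd1, 17332 bases from Asprv1, was called lower with siErk3 in BSA (-0.45) but was at -0.17 with siMk5 in BSA and at -0.11 and -0.07 in PA. Itpkb, 7585 bases from Stum, was between -0.08 and 0.20 in the silencing comparisons. It fell with PA (-0.89), as Stum did.

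The genes whose log2 CPM followed the 5 most closely over the 18 libraries are given as a description, since the libraries share 6 groups and the PA difference. For Asprv1 these were the chemokine receptor Cxcr6 (r = 0.92) and Tmem182 (r = 0.91), and for Padi4 Gdpd5 (r = 0.94) and Coq8a (r = 0.94), among 14084 genes with a mean of at least 10 counts. Sprr5 was followed by Tcp11x2 (r = 0.95) and Gpn1 (r = 0.93), and Stum by Gatm, an enzyme of creatine synthesis (r = 0.96), and N4bp3 (r = 0.96). St8sia4 had the weakest, Chi3l1 (r = 0.87) and Rai2 (r = 0.85). Cxcr6 had the group order of Asprv1 in part, with 5.28, 2.67 and 3.48 CPM in siNTC, siErk3 and siMk5 in BSA and 7.11, 3.94 and 6.31 CPM in PA. Among the 5, Sprr5 and Padi4 were the most opposed (r = -0.87) and St8sia4 and Stum the most alike (r = 0.53).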

How the data were processed

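Poly(A)-selected, strand-specific RNA libraries of C2C12 myotubes were sequenced as read pairs. The authors trimmed the reads with cutadapt and Trim Galore, aligned them to GRCm39 with STAR, kept duplicates, and deposited raw counts per gene from featureCounts 2.0.0 (strand setting 2, mapping quality of at least 3, primary alignments, Ensembl 105). Poly(A) selection and length limit how faithfully counts reflect a gene's RNA, and levels between genes were therefore compared per kilobase. CPM not divided by length was compared between genes only as a measure of how many read pairs were counted. A second deposited table of log2 values of the same libraries was not used.

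Counts of 18 libraries were taken as deposited (total counts 13041979 to 28496727) and grouped by GEO's labels. Of 55414 genes, 54749 were named from GENCODE M39 (GRCm39), and 21772 with at least 10 counts in total were tested. One coefficient per group was fitted over all libraries with edgeR 4.0.16 (R 4.3.3, limma 3.58.1), TMM scaling and the quasi-likelihood test. Genes were called at a Benjamini-Hochberg FDR below 0.05 over all genes tested and a fold change above 1.3. Intervals are 95% intervals. Single genes were also tested for PA against BSA by exact permutation of libraries within each siRNA, with Python 3.11.15 and scipy 1.17.1, on log2 CPM with a prior count of 2. Alternatives were DESeq2 1.42.0, its size factors, other filters, prior counts and sample sets, scaling without 18S RNA, the replicate block and leaving out each library. Scripts were tested on simulated data. Exact Poisson intervals cover counting error only.

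The 5 genes and all lists were chosen with earlier results of these data known. Named besides them are Mapk6 and Mapkapk5, list members, the nearest tested genes and, for each gene, the 2 genes of highest correlation. A test of each silencing in the medium not used for the choice had been planned. It was not made. In the edgeR fit Sprr5 and Stum met the criteria with both silencings in neither medium, while with DESeq2 Sprr5 did in BSA and Stum in PA. The contrasts behind the choice are not stated, so all 4 were treated as used. Differences between siErk3 and siMk5, planned as tests, are given as descriptions for the same reason.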

Additional observations from a re-analysis of the deposited data

How the results depend on the processing

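Of 601 alternative values for the 5 genes, 593 kept their sign. The 8 that turned were all small differences between siErk3 and siMk5. In BSA, Stum went to -0.02 (-0.0153) without siMk5_BSA replicate 2. In PA, Padi4 went to -0.0045, -0.08 and -0.14, St8sia4 to -0.16 and -0.02 (-0.0217), and Stum to 0.000345 and 0.00849 on leaving out 1 library. Over such omissions Stum ran from -0.02 to 0.29 in BSA, and in PA Padi4 ran from -0.14 to 0.63, St8sia4 from -0.16 to 0.38 and Stum from -0.09 (-0.0852) to 0.0085. The cause was not tested.

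Leaving out siErk3_Palmitic replicate 2 or siMk5_Palmitic replicate 3 took Asprv1 between the silencings out of the criteria, while leaving out 1 library brought Sprr5 there or St8sia4 with PA into them, as given above. PA calls of Asprv1, Padi4, Sprr5 and Stum held in every alternative run, with FDR of at most 0.00215, 3.09e-08, 3.30e-12 and 6.55e-12. The silencing criteria were met under fewer settings: Asprv1 with siErk3 met them in 14 of 14 in each medium and Sprr5 with siMk5 in PA in 13 of 13, but Stum with siMk5 in PA in 8 of 14, Padi4 with siErk3 and Asprv1 with siMk5 in BSA in 9 of 14 each, and St8sia4 in PA in 11 of 13 with siErk3 and 10 of 13 with siMk5.

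Genes called numbered 171, 14, 121 and 119 for siErk3 and siMk5 in BSA and siErk3 and siMk5 in PA, 128 and 224 between the silencings in BSA and PA, and 8121 with PA. Without a filter (every gene with a count) siMk5 in BSA had 61, siErk3 in PA 208 and the silencings in BSA 201. On FDR alone siErk3 had 263 in BSA and 186 in PA, and PA had 12834. A fit of only the groups compared gave 71 for siErk3 in PA. Leaving out 1 library gave 113 to 144 for siErk3 in BSA (113 without siNTC_BSA replicate 2) and 6 to 25 for siMk5 in BSA (9 and 6 without siNTC_BSA replicates 1 and 2, 25 and 7 without siMk5_BSA replicates 1 and 3).

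Replicate numbers did not pair libraries: deviations of same-numbered libraries correlated between -0.51 and 0.44 over 45 pairs, and 7 of 18 libraries correlated best with their own number. The replicate block gave 171, 18, 123, 121, 130, 224 and 8028 calls in the order above, and an Asprv1 difference between silencings in PA of -0.82. Counts of 1 to 12 per siNTC library limit the precision of the St8sia4 fold changes.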
